A study of Mus musculus with 10 samples.

Results

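The collagen genes other than 6 listed genes of cartilage collagens were examined in the mouse anterior fontanelle (AF) at E18.5, late in gestation. *Col10a1* and *Col27a1*, also known from cartilage, stayed among the members. The members are the protein-coding genes of the deposited table whose symbol has the form Col, number, a, number, without *Col2a1*, *Col9a1*, *Col9a2*, *Col9a3*, *Col11a1* and *Col11a2*. This left 38 of the 23080 genes listed, of which 36 passed the expression filter and were tested among 16267 genes. *Col19a1* and *Col6a4* were too low to be tested. The dissected pieces held bone and the soft tissue of the suture, with overlying skin and underlying brain removed, and total RNA was sequenced. The table holds 5 libraries labelled WT, which the study calls littermate controls, and 5 labelled NCC Fgfr2 KO, of genotype Wnt1-Cre; Fgfr2fl/fl. The Wnt1-Cre transgene acts in neural crest cells, so cells of other origin in the excised region keep both floxed alleles intact. The comparison addresses how loss of *Fgfr2* in the neural crest affects the AF.

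Collagens are proteins of 3 chains wound into a triple helix, and they make up most of the fibrous matrix of bone, sutures and fontanelles. Fibrillar collagens build the cross-striated fibrils of bone and connective tissue, with type I as the main collagen of bone. Collagens of the FACIT class sit on fibril surfaces, basement membrane collagens form sheets beneath epithelium and endothelium and around muscle and nerve, type VI forms beaded microfilaments around cells, and transmembrane collagens span the cell membrane. Types VIII and X form networks and were described with type XXVI in a remaining class.

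Libraries held 20774600 to 28515400 estimated counts, of which 18.7% to 33.6% came from ribosomal RNA genes. *Fgfr2* itself went against the labels. It averaged 199.5 ± 21.7 CPM (counts scaled to a common library size with TMM normalization; SD, n = 5) in the libraries labelled as controls and 318 ± 32.8 CPM (SD, n = 5) in those labelled as mutants, with a log2 fold change of 0.67 and an adjusted p of 0.0487 by edgeR. A count over the whole gene cannot separate a recombined allele from an intact one, so it does not by itself show which libraries carry the deletion. The groups are therefore called control-labelled and mutant-labelled, and every direction rests on those labels. By these labels, 9 of 9 osteoblast markers were lower in the mutant-labelled group, and 4 of 6 tendon and ligament markers were higher and 2 lower. *Sp7* had a log2 fold change of -0.24 and *Scx* 0.35 (edgeR adjusted p = 0.522 and 0.656). In tissue sections the study reports less *Sp7* and a wider *Scx* domain in mutants. An exchange of labels was not tested. Markers checked by summed CPM showed bone in every library, with 9 of 9 non-collagen osteoblast markers detected. Mutant-labelled replicate 2 stood apart. It was the lowest library of its group in 24 of the 33 members with a mean of at least 1 CPM. Control-labelled replicate 3 was the lowest of its group in 17 of the same 33, and the count was not made over all genes. In mutant-labelled replicate 2, neuron and Schwann cell markers summed to 302 CPM against 40.6 to 129 CPM in the other 9 libraries. Skeletal muscle markers summed to 750.5 CPM in control-labelled replicate 2 and 795 CPM in mutant-labelled replicate 1 against 16.3 to 145 CPM elsewhere. Values without 1 of these libraries are given beside the members they moved most.

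None of the 36 tested collagen genes differed between the groups after adjustment. By edgeR's quasi-likelihood test, 0 members had an adjusted p under 0.05, where 3 of all genes tested (0.0184%) did, and 0 members were called by DESeq2 (0.538% of all genes) or by limma voom (0.0184% of all genes). At an unadjusted p under 0.05 there were 5 members (13.9%) against a background of 7.49% of all genes tested. These were 2 higher members, *Col8a1* and *Col8a2*, where 3.68% of all genes were higher, and 3 lower members, *Col24a1*, *Col22a1* and *Col10a1*, where 3.82% of all genes were lower. In 0 members did the groups not overlap, against 1.48% of all genes. The median log2 fold change of the members, mutant-labelled minus control-labelled, was 0.04, with 21 positive and 15 negative, and that of all genes tested was 0.00073. The members' median was 0.00064 without control-labelled replicate 3, 0.07 without control-labelled replicate 1 and -0.0055 when scaled by library size only. The highest value of any alternative was 0.10. The members ranged from -0.56 for *Col10a1* to 0.70 for *Col6a6*. In such bulk tissue, fewer cells of a type and less RNA per cell cannot be told apart, and the p-values measure the spread between these embryos' libraries only.

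**Figure D1:**
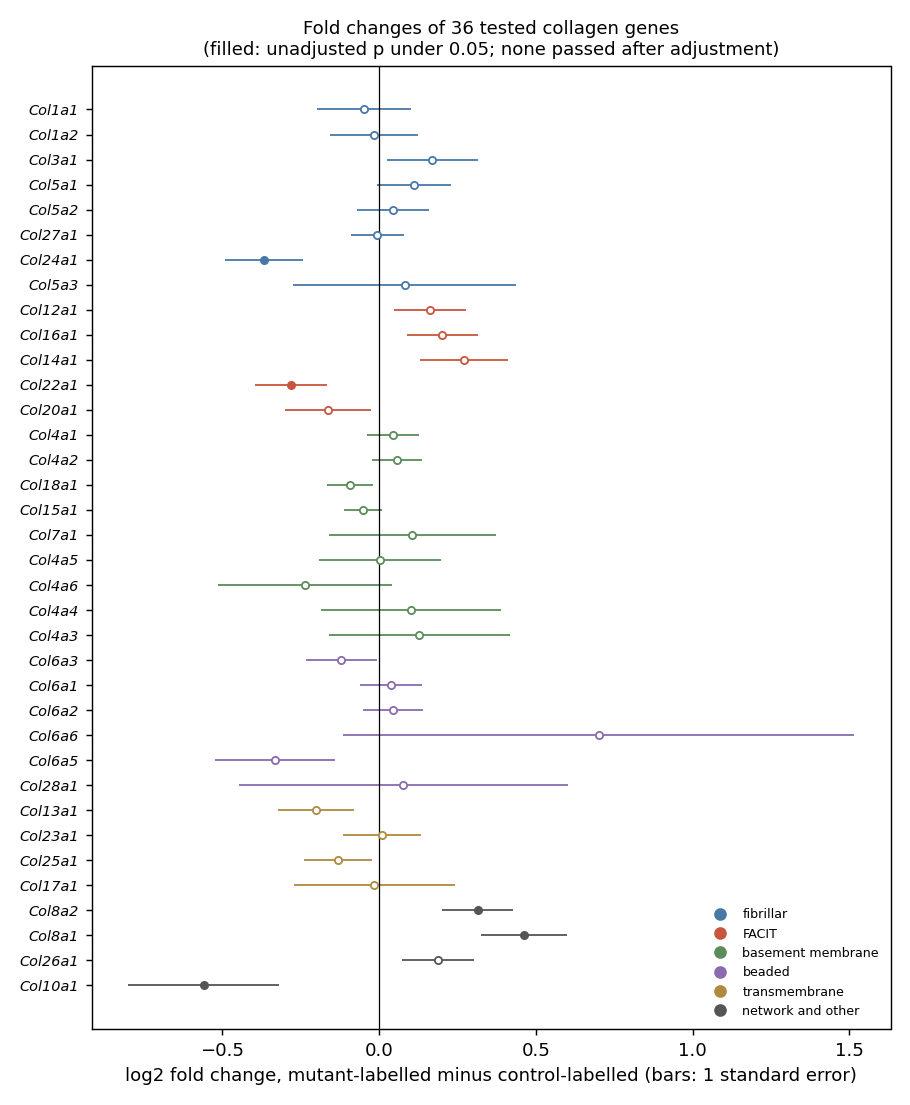
Log2 fold change of each of the 36 tested members by edgeR (mutant-labelled minus control-labelled, n = 5 per group, horizontal axis), with bars of 1 standard error and colors for class. Filled points have an unadjusted p under 0.05 (5 members), and 0 members passed after adjustment. *Col6a6* has the widest bar.

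Both network collagen genes of type VIII had higher means in the mutant-labelled group, *Col8a1* with the lowest p of all members, though neither passed after adjustment. Type VIII collagen is a short-chain collagen of vessel walls, of the membrane beneath the corneal endothelium and of other connective tissue, and *Col8a1* and *Col8a2* encode its chains. The 250 bases before the RefSeq start of each gene (build GRCm38.p6, written 5′ to 3′ on the gene's own strand) are shown because these were the 2 members higher in the mutant-labelled group at an unadjusted p under 0.05, with matches to GGGCGG or its reverse complement, and to TGTGGT, in capitals. The *Col8a1* window lies at chr16:57754738-57754987 on the minus strand and that of *Col8a2* at chr4:126286544-126286793 on the plus strand.

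Col8a1: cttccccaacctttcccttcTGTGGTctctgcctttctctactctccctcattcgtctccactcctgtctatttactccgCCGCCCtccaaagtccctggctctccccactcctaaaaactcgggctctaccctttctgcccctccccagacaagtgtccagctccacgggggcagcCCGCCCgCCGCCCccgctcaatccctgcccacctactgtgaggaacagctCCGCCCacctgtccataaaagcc

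Col8a2: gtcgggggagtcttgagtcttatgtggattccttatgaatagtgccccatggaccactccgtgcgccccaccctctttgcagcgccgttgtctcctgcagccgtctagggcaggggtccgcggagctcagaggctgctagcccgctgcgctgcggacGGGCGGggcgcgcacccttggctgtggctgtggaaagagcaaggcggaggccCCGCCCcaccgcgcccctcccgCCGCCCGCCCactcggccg

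Each window held GGGCGG, searched on both strands, 4 times. In *Col8a1* all 4 were reverse complements, with first bases at -170, -73, -66 and -23 from the start, and TGTGGT stood at -230. In *Col8a2* the matches began at -93, -41, -19 and -15, the last 2 overlapping. GGGCGG was present in 32.7% of the 32851 promoter windows of the RefSeq table and in 19 of 33 windows of the 31 members that had one. TGTGGT was present in 14.0% of all windows and in 3 of the 33. A match describes letters and not a bound site.

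*Col8a1* (chr16:57624258-57754737 in GRCm38) read 242, 192, 180.5, 148 and 213 CPM in control-labelled replicates 1 to 5 and 331, 222, 258, 294 and 239 CPM in mutant-labelled replicates 1 to 5. The lowest mutant-labelled library and the next lowest stood within the control range, which reached 242 CPM, and the other 3 lay above it. The means were 195 ± 35.4 and 269 ± 43.7 CPM (SD, n = 5 per group), and the log2 fold change was 0.46 (SE 0.137), with an unadjusted p of 0.00579 and an edgeR adjusted p of 0.451.

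*Col8a2* (chr4:126286793-126314330) read 456, 516, 394, 385 and 344 CPM in the control-labelled replicates and 526, 425, 552, 560 and 542 CPM in the mutant-labelled replicates. All mutant-labelled libraries other than replicate 2 were above the highest control-labelled library. Means were 419 ± 67.5 and 521 ± 55.2 CPM (SD, n = 5 per group), and the log2 fold change was 0.31 (SE 0.113), with an unadjusted p of 0.0174 and an edgeR adjusted p of 0.588. Without mutant-labelled replicate 2 the log2 fold changes were 0.53 for *Col8a1* and 0.38 for *Col8a2*, with edgeR adjusted p of 0.353 and 0.372. Adjusted p over all alternative settings was lowest by DESeq2, at 0.0911 for *Col8a1* and 0.278 for *Col8a2*. With the score of osteoblast markers described further on as a covariate, the log2 fold changes were 0.21 and 0.32, with edgeR adjusted p of 0.993 each.

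*Col26a1*, whose product carries an EMI domain, was in the same remaining class and had a log2 fold change of 0.19 (edgeR adjusted p = 0.732), or 0.11 without control-labelled replicate 3, its lowest library. Its control-labelled libraries held 48.7 to 73.1 CPM and its mutant-labelled libraries 64.7 to 88.3 CPM. The remaining class made up 0.475% to 0.669% of collagen counts in the control-labelled group and 0.622% to 0.781% in the mutant-labelled group, so the groups overlapped. Of its 4 members, 3 had positive fold changes, and the median was 0.25.

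The fourth member was *Col10a1*, the collagen of hypertrophic cartilage (chr10:34389981-34397085). It read 10.8, 5.87, 10.9, 13.04 and 6.09 CPM in the control-labelled replicates and 6.92, 6.96, 7.19, 6.64 and 3.93 CPM in the mutant-labelled replicates. The control-labelled values fell into a higher set of 3 and a lower set of 2 libraries, and most mutant-labelled values lay between those sets. The log2 fold change was -0.56 (SE 0.241), with an unadjusted p of 0.0394 and an edgeR adjusted p of 0.653. It shares 18 exon bases with *Nt5dc1* on the opposite strand. Among 6 chondrocyte markers, *Col2a1* included, which summed to 275 to 347 CPM in control-labelled and 366 to 401 CPM in mutant-labelled libraries, 4 were higher and 2 lower. Of the 6, 2 had an unadjusted p under 0.05 by edgeR, *Col2a1* and *Cnmd*, both higher, and 0 passed after adjustment. The other 5 markers without *Col2a1* summed to 221 to 280 and 248 to 302.5 CPM, which overlap. *Acan* made up most of that sum, at means of 206 and 229 CPM. *Cnmd* alone averaged 5.74 and 9.05 CPM, and its groups did not overlap. *Col2a1*, the main cartilage collagen and not a member, averaged 56.2 ± 8.91 and 103 ± 34.6 CPM (SD, n = 5 per group, edgeR adjusted p = 0.302). Its groups did not overlap, at 47.3 to 68.5 and 70.7 to 153 CPM.

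**Figure D2:**
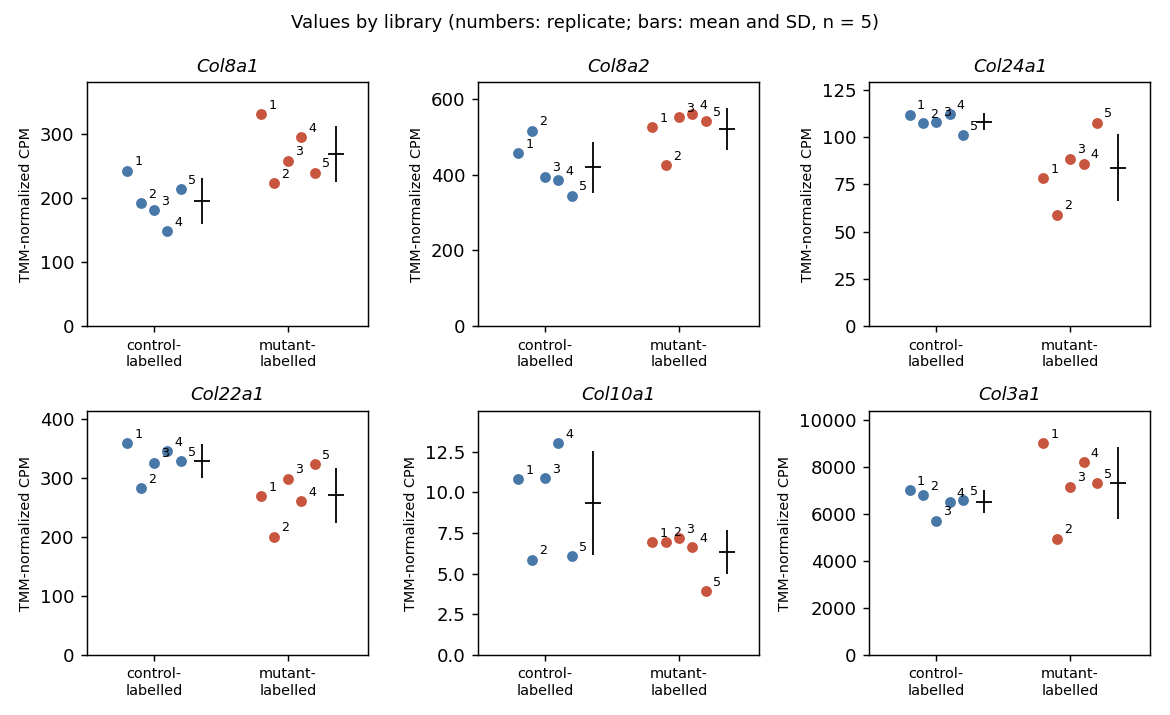
TMM-normalized CPM of 6 members in each library (vertical axes start at 0), numbered by replicate, with the mean and SD of each group (n = 5). The groups overlap in every panel, and mutant-labelled replicate 2 is the lowest of its group for *Col8a1*, *Col8a2*, *Col24a1*, *Col22a1* and *Col3a1*.

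Type I collagen dominated the tissue and did not differ between the groups beyond the spread. *Col1a1* (chr11:94936224-94953042) read 70335, 58751, 66909, 68088 and 67151 CPM in the control-labelled replicates and 59085, 48580, 71109, 70309 and 71268 CPM in the mutant-labelled replicates. Mutant-labelled replicate 2 was lowest of all libraries, while mutant-labelled replicates 3 and 5 were the highest. On the log2 scale the fold change was -0.05 (SE 0.151, edgeR adjusted p = 0.963). *Col1a2*, the partner chain in the type I trimer, averaged 37468 ± 2315 and 37063 ± 5914 CPM (SD, n = 5 per group), and the log2 fold change was -0.02 (edgeR adjusted p = 0.987). Without mutant-labelled replicate 2 the values were 0.04 for *Col1a1* and 0.07 for *Col1a2*. The genes together took 13.2% to 15.0% of all counts outside ribosomal RNA in control-labelled and 11.5% to 15.4% in mutant-labelled libraries.

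The ratio of *Col1a2* to *Col1a1* CPM stayed in a narrow range, at 0.558 to 0.576 in control-labelled and 0.568 to 0.593 in mutant-labelled libraries. The mean log2 ratios differed by 0.03 with a two-sided exact permutation p of 0.0635 over all groupings of the libraries, and an adjusted p of 0.413 over the 8 ratios compared. The smallest p these groups allow is 0.00794.

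Type I values stood beside osteoblast markers that did separate the groups. The 9 non-collagen osteoblast markers summed to 7282 to 9038 CPM in control-labelled and 5404 to 7092 CPM in mutant-labelled libraries, with no overlap. All 9 had lower means in the mutant-labelled group, 7 of them at an unadjusted p under 0.05 and 0 after adjustment by edgeR. *Ibsp*, a bone matrix sialoprotein, averaged 1704 ± 185.4 and 1137 ± 266 CPM (SD, n = 5 per group). With the osteoblast marker score as a covariate, the log2 fold changes of *Col1a1* and *Col1a2* were 0.28 and 0.31, with edgeR adjusted p of 0.993 each. Since the score follows the groups, the part of bone content in the member values cannot be told apart from the label.

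**Figure D3:**
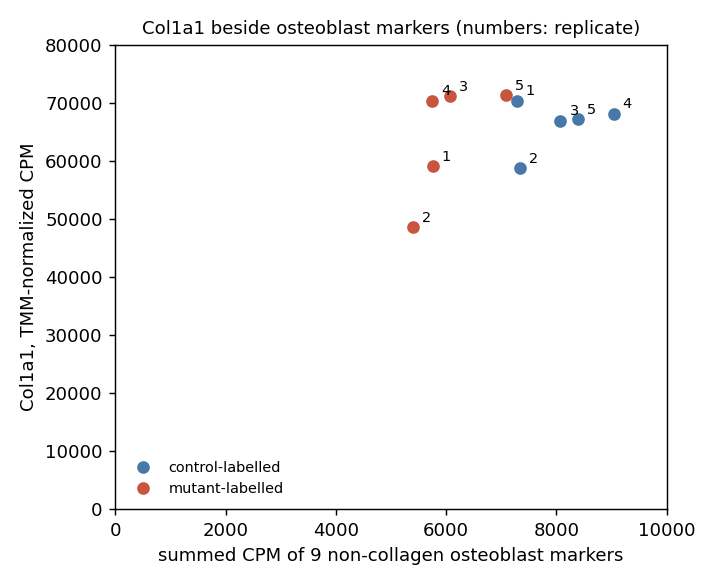
*Col1a1* in TMM-normalized CPM (vertical axis) against the summed CPM of 9 non-collagen osteoblast markers (horizontal axis), a point per library numbered by replicate. The marker sums of the groups do not overlap (7282 to 9038 against 5404 to 7092), while *Col1a1* overlaps.

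The other abundant fibrillar genes encode chains that assemble with type I. *Col3a1*, the collagen of loose and elastic connective tissue (chr1:45311538-45349706), read 7002, 6811, 5720, 6493 and 6576 CPM in the control-labelled replicates and 9024, 4944, 7167, 8207 and 7313 CPM in the mutant-labelled replicates. Of the mutant-labelled libraries, 4 were above the highest control-labelled library and replicate 2 was below the lowest. The log2 fold change was 0.17 (SE 0.145, edgeR adjusted p = 0.826), and without mutant-labelled replicate 2 it was 0.29 (unadjusted p = 0.00924, edgeR adjusted p = 0.493). Without mutant-labelled replicate 1, its highest library, it was 0.09 (edgeR adjusted p = 0.912). The gene shares 141 exon bases with Gm47302 on the same strand.

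*Col5a1*, whose chain helps start and limit the width of type I fibrils, read 2565, 2558, 2277, 2348 and 2119 CPM in the control-labelled replicates and 2797, 1856, 2637, 2620 and 2901 CPM in the mutant-labelled replicates. The picture was that of *Col3a1*, with 4 libraries above the control range and replicate 2 below it. On the log2 scale the fold change was 0.11 (edgeR adjusted p = 0.864), and 0.21 without mutant-labelled replicate 2 (unadjusted p = 0.0164, edgeR adjusted p = 0.578). Without mutant-labelled replicate 5, its highest library, it was 0.06 (edgeR adjusted p = 0.935). *Col5a2*, the partner chain of *Col5a1*, had a log2 fold change of 0.04 (edgeR adjusted p = 0.954) and 0.15 without mutant-labelled replicate 2 (edgeR adjusted p = 0.7102), or 0.0040 without mutant-labelled replicate 5 (edgeR adjusted p = 0.995). *Col3a1* and *Col5a2* lie 24614 bases apart on chromosome 1 and are read from opposite strands.

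Ratios among these chains did not separate the groups. *Col3a1* to *Col1a1* was 0.0855 to 0.116 in control-labelled and 0.101 to 0.153 in mutant-labelled libraries (exact permutation p = 0.127, adjusted p = 0.413). *Col5a1* to *Col5a2* was 0.924 to 1.16 and 1.03 to 1.20 (exact permutation p = 0.341, adjusted p = 0.546). The differences of these ratios in mean log2 were 0.21 and 0.07, the first 0.10 without mutant-labelled replicate 1 and the second 0.02 without control-labelled replicate 5. Fibrillar genes other than type I took 8.26% to 10.2% of collagen counts in control-labelled and 9.01% to 12.1% in mutant-labelled libraries.

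*Col24a1*, a fibrillar collagen gene known from bone and cornea (chr3:145292472-145552011), was the fibrillar member with the lowest p. It read 112, 107, 108, 112 and 101 CPM in the control-labelled replicates and 78.4, 58.9, 88.7, 86.1 and 108 CPM in the mutant-labelled replicates. Mutant-labelled replicate 5 stood within the control range and the other 4 were below it. Means were 108 ± 4.52 and 84.0 ± 17.7 CPM (SD, n = 5 per group), and the log2 fold change was -0.37 (SE 0.123), with an unadjusted p of 0.0121 and an edgeR adjusted p of 0.531. Its value was -0.26 without mutant-labelled replicate 2 and 0.10 with the osteoblast score as a covariate.

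*Col27a1*, a fibrillar gene with a short helix best known from cartilage, had a log2 fold change of -0.01. *Col5a3*, the third type V chain, found in muscle and other connective tissue, read 54.9, 74.4, 49.5, 62.1 and 47.3 CPM in the control-labelled replicates. In the mutant-labelled replicates it read 144, 40.0, 38, 45.1 and 38.5 CPM. Mutant-labelled replicate 1, with the highest muscle markers, was above every other library, and its 4 companions were below every control-labelled library. The log2 fold change was 0.08 over all libraries and -0.39 without both muscle-rich libraries (unadjusted p = 0.00185, edgeR adjusted p = 0.406). Without mutant-labelled replicate 1 alone it was -0.50 (unadjusted p = 0.00217, edgeR adjusted p = 0.464). Of the 8 fibrillar members, 4 had positive and 4 negative fold changes, with a median of 0.02. That median was 0.11 without mutant-labelled replicate 2, -0.02 without mutant-labelled replicate 5 and 0.26 with the osteoblast score. The fibrillar members took 89.4% to 91.5% and 89.6% to 90.9% of collagen counts.

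Among the tested FACIT genes, *Col12a1*, *Col16a1* and *Col14a1* had positive fold changes and *Col22a1* and *Col20a1* negative ones. *Col12a1*, a fibril-associated collagen of tendon, ligament and periosteum, read 2857, 3295, 2668, 2555 and 2518 CPM in the control-labelled replicates and 3144, 2426, 3546, 3028 and 3407 CPM in the mutant-labelled replicates. Its log2 fold change was 0.16 (SE 0.116, edgeR adjusted p = 0.777) and 0.25 without mutant-labelled replicate 2 (edgeR adjusted p = 0.6005). *Col16a1*, found near fibrils and basement membranes, read 1019, 979.8, 860.1, 969 and 814 CPM against 1023, 797, 1187, 1200 and 1132 CPM. Apart from replicate 2, which was below the control range, all its mutant-labelled libraries were above that range, replicate 1 only narrowly. On the log2 scale the fold change was 0.20 (edgeR adjusted p = 0.708) and 0.30 without mutant-labelled replicate 2 (unadjusted p = 0.00394, edgeR adjusted p = 0.372).

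*Col14a1*, which is found with type I fibrils in dense connective tissue, read 334, 283, 254, 354 and 320 CPM in the control-labelled replicates and 374, 290.5, 497, 385 and 314 CPM in the mutant-labelled replicates. Its log2 fold change was 0.27 (SE 0.14, unadjusted p = 0.0786, edgeR adjusted p = 0.677), and 0.15 without mutant-labelled replicate 3, its highest library. Tendon and ligament markers summed to 308 to 367 CPM in control-labelled and 350 to 482 CPM in mutant-labelled libraries, with 4 of 6 markers higher, 3 of them at an unadjusted p under 0.05. Their part in the FACIT values was not tested.

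*Col22a1*, a collagen of tissue junctions such as that of muscle and tendon (chr15:71795795-72034227), read 359, 283, 326, 345 and 328 CPM in the control-labelled replicates and 269, 200.5, 298, 260.4 and 323 CPM in the mutant-labelled replicates. Mutant-labelled replicates 3 and 5 lay inside the control range and the other 3 below it. Means were 328 ± 28.8 and 270 ± 46.2 CPM (SD, n = 5 per group), and the log2 fold change was -0.28 (SE 0.115), with an unadjusted p of 0.0316 and an edgeR adjusted p of 0.635. Its value was -0.18 without mutant-labelled replicate 2 (edgeR adjusted p = 0.736), -0.32 without both muscle-rich libraries and 0.18 with the osteoblast score as a covariate. *Col20a1* was low, at 4.78 and 4.27 CPM, with a log2 fold change of -0.16, or -0.09 when mutant-labelled replicate 4 was left out and -0.08 when control-labelled replicate 1 was. *Col19a1* was under 1 CPM in every library.

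Of the 5 tested FACIT genes, 3 had positive fold changes with a median of 0.16 over the class (0.25 without mutant-labelled replicate 2 and 0.34 with the osteoblast score as a covariate), and the class took 3.14% to 4.15% of collagen counts in control-labelled and 3.56% to 4.03% in mutant-labelled libraries. *Col12a1* to *Col14a1* differed by -0.10 in mean log2 ratio (exact permutation p = 0.556, adjusted p = 0.635), by -0.19 when mutant-labelled replicate 5 was left out and by -0.0048 when control-labelled replicate 2 was.

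**Figure D4:**
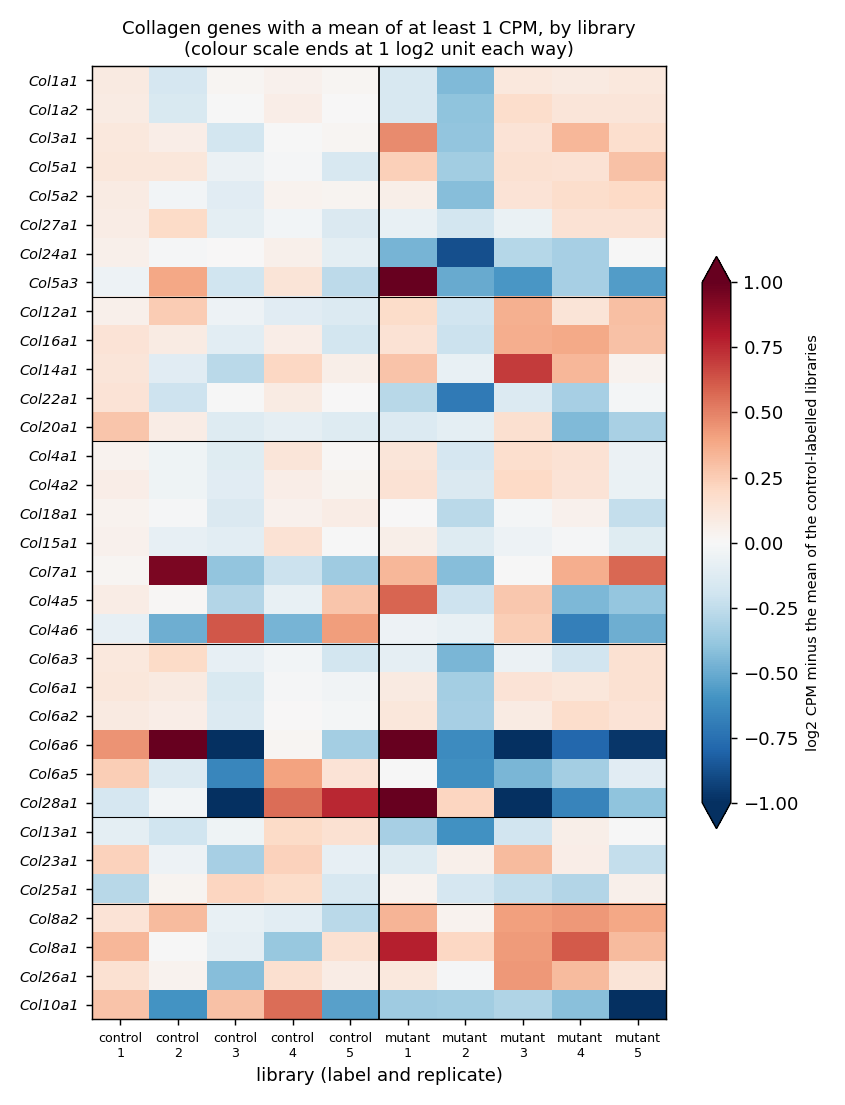
Log2 CPM of the 33 members with a mean of at least 1 CPM in each of the 10 libraries (columns), minus the mean of the control-labelled libraries, with colors ending at 1 log2 unit and thin lines between classes. Mutant-labelled replicate 2 is low across most fibrillar, FACIT and beaded rows, and mutant-labelled replicate 1 is high for *Col5a3*, *Col6a6* and *Col28a1*.

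The abundant basement membrane collagens varied little between libraries. *Col4a1*, which with *Col4a2* encodes the ubiquitous type IV trimer, read 1186, 1121, 1063, 1258 and 1164 CPM in the control-labelled replicates and 1258, 1027, 1299, 1282 and 1108 CPM in the mutant-labelled replicates. The highest library was 1.26 times the lowest, and the log2 fold change was 0.04 (SE 0.0831, edgeR adjusted p = 0.935). *Col4a2* averaged 798 ± 42.9 and 830.4 ± 84.0 CPM (SD, n = 5 per group), and the log2 fold change was 0.06. The 2 genes lie head to head on chromosome 8, with start sites 21 bases apart, and share 22 exon bases. Their ratio was 0.664 to 0.702 in control-labelled and 0.684 to 0.703 in mutant-labelled libraries (exact permutation p = 0.540, adjusted p = 0.635).

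*Col18a1*, the source of endostatin, and *Col15a1*, its close relative of the basement membrane zone, had log2 fold changes of -0.09 and -0.05 (edgeR adjusted p = 0.807 and 0.876). Without mutant-labelled replicate 2 the values were -0.04 and -0.03, and those of *Col4a1* and *Col4a2* were 0.10 and 0.11. *Col15a1* had the narrowest range of the 33 members, with its highest library at 1.21 times its lowest. Endothelial markers likewise gave overlapping sums, at 452 to 580 CPM in control-labelled and 474 to 580 CPM in mutant-labelled libraries, with 3 of 6 higher and 0 at an unadjusted p under 0.05.

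The tissue-restricted chains of type IV were low. *Col4a5* averaged 8.25 and 8.28 CPM and *Col4a6* 1.36 and 1.153 CPM (log2 fold change -0.24, or -0.05 without control-labelled replicate 3), while *Col4a3* and *Col4a4*, known from kidney glomerulus, averaged 0.479 to 0.584 CPM. *Col7a1*, the anchoring fibril collagen beneath epidermis, averaged 9.24 ± 4.22 and 9.99 ± 2.49 CPM (SD, n = 5 per group), with 16.6 CPM in control-labelled replicate 2. Its log2 fold change was 0.11 and, without that library, 0.44 (unadjusted p = 0.0375, edgeR adjusted p = 0.595). Without mutant-labelled replicate 5 it was -0.0015 (edgeR adjusted p = 0.999). Epidermal markers summed to at most 7.55 CPM in any library. Of the 9 basement membrane members, 6 had positive fold changes, 0 had an unadjusted p under 0.05, and the median was 0.04, or -0.01 without control-labelled replicate 4 and -0.10 with the osteoblast score. The class took 1.62% to 1.83% and 1.52% to 2.06% of collagen counts.

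Among the beaded collagens, the chains of the common type VI trimer were abundant and close between the groups. *Col6a1* averaged 1138 ± 83.7 and 1167 ± 152 CPM, *Col6a2* 1062 ± 62.9 and 1095 ± 145 CPM, and *Col6a3* 1867 ± 191 and 1718 ± 259 CPM (SD, n = 5 per group). Log2 fold changes were 0.04, 0.04 and -0.12, with edgeR adjusted p of 0.955, 0.944 and 0.845. Without mutant-labelled replicate 2 they were 0.12, 0.13 and -0.04, and *Col6a3* was -0.06 without control-labelled replicate 2. *Col6a2* to *Col6a1* was 0.914 to 0.948 in control-labelled and 0.899 to 0.980 in mutant-labelled libraries (exact permutation p = 0.810, adjusted p = 0.810).

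*Col6a6*, an alternative type VI chain known from muscle, read 12.4, 19.0, 3.997, 9.24 and 7.18 CPM in the control-labelled replicates and 66.6, 5.88, 2.70, 5.28 and 4.64 CPM in the mutant-labelled replicates. Its highest library was 24.7 times its lowest, and the highest library of each group was the one with the highest muscle markers. The log2 fold change was 0.70 (SE 0.816, edgeR adjusted p = 0.878), -1.16 without mutant-labelled replicate 1 and -0.82 without both muscle-rich libraries (unadjusted p = 0.0353, edgeR adjusted p = 0.605), so its direction rests on 1 library. Of the 6 muscle markers, 4 could be tested and 0 had an unadjusted p under 0.05.

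*Col6a5*, another alternative chain, averaged 5.71 ± 1.47 and 4.53 ± 0.783 CPM (SD, n = 5 per group), and the log2 fold change was -0.33 (edgeR adjusted p = 0.716). *Col28a1*, found around peripheral nerve, averaged 1.92 and 2.03 CPM and was highest, at 5.15 CPM, in mutant-labelled replicate 1, with a log2 fold change of 0.08 and, without that library, -0.60 (edgeR adjusted p = 0.755). Of 6 tested beaded members, 4 had positive fold changes and 0 an unadjusted p under 0.05. Their median of 0.04 was -0.26 without mutant-labelled replicate 1, and the class took 2.999% to 3.82% and 2.97% to 3.49% of collagen counts.

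The transmembrane collagens were the lowest class, at 0.0951% to 0.117% of collagen counts in control-labelled and 0.0896% to 0.106% in mutant-labelled libraries. *Col13a1*, found at cell adhesions and at the neuromuscular junction, read 83.8, 78.3, 87.3, 103 and 99.9 CPM in the control-labelled replicates and 71.5, 59.1, 78.7, 93.8 and 89.6 CPM in the mutant-labelled replicates. Its log2 fold change was -0.20 (SE 0.121, edgeR adjusted p = 0.726), with 3 mutant-labelled libraries inside the control range and 2 below it. Without mutant-labelled replicate 2 it was -0.11 (edgeR adjusted p = 0.910). *Col23a1* and *Col25a1* averaged 22.7 and 19.9 CPM in the control-labelled group, with log2 fold changes of 0.01 and -0.13 (edgeR adjusted p = 0.993 and 0.814). *Col25a1* was at -0.06 without control-labelled replicate 3. *Col17a1*, a hemidesmosome component of epithelium, averaged 0.843 and 0.838 CPM. Of the 4 members, 3 had negative fold changes and 0 an unadjusted p under 0.05, and the median was -0.07. It was -0.14 without control-labelled replicate 5, -0.04 without mutant-labelled replicate 4 and 0.03 with the osteoblast score.

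Levels between genes were compared as CPM per kb of the longest principal transcript in GENCODE M21. In the control-labelled group *Col1a1* stood at 11172 ± 743, *Col1a2* at 7006 ± 433 and *Col3a1* at 1172 ± 88.1 CPM per kb (SD, n = 5 per group). *Col5a2* followed at 339 ± 17.2, and *Col5a1*, *Col6a1* and *Col6a2* came next at 282 ± 22.7, 277 ± 20.4 and 269 ± 15.9 CPM per kb, within each other's spread. *Col12a1* was at 241 ± 27.6 and *Col6a3* at 207 ± 21.2 CPM per kb, while *Col16a1* and *Col4a1*, at 178 ± 16.7 and 175 ± 11.01 CPM per kb, did not differ beyond their spread. *Col8a2* stood at 96.8 ± 15.6 and *Col8a1* at 38.2 ± 6.93 CPM per kb. The lowest, *Col19a1* and *Col6a4*, stood at 0.04 CPM per kb each. Type I genes took 79.2% to 83.2% of collagen counts in control-labelled and 77.5% to 81.5% in mutant-labelled libraries.

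**Figure D5:**
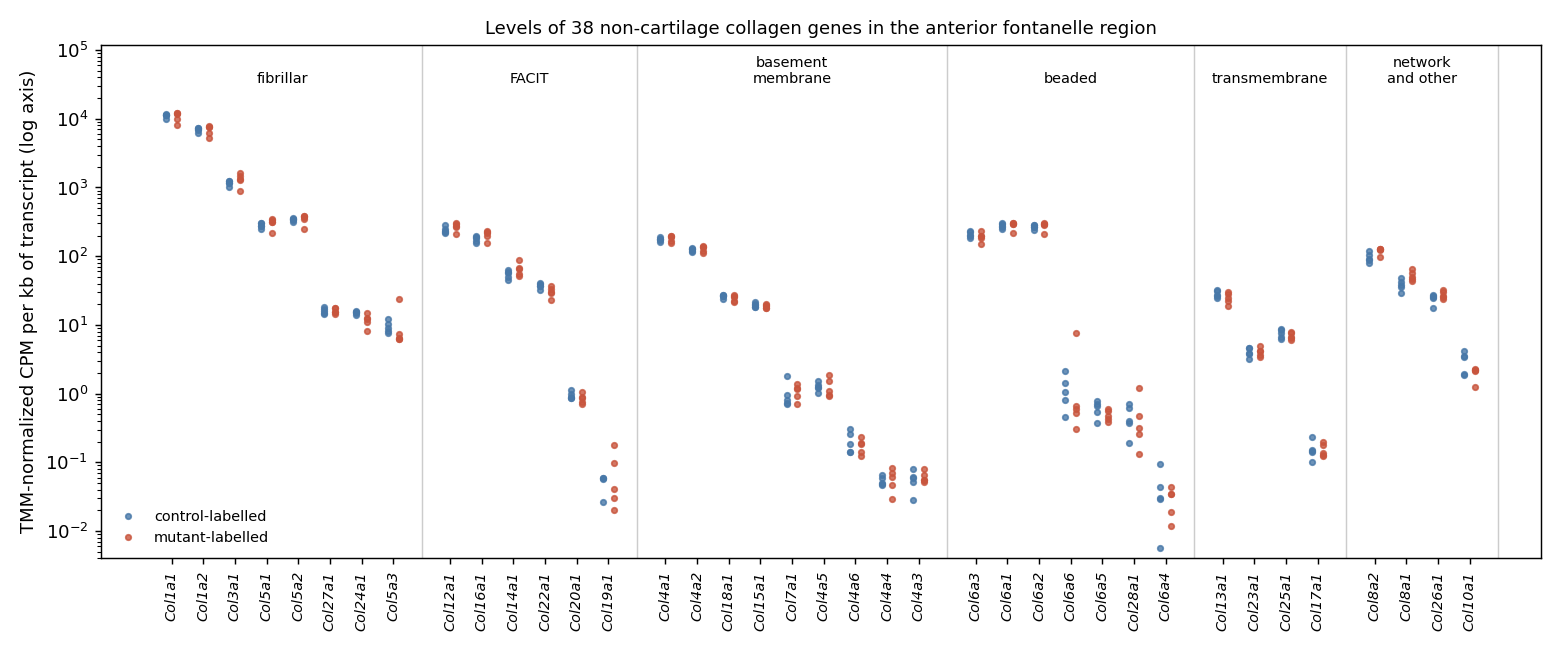
TMM-normalized CPM per kb of transcript (log axis) of all 38 members by class, a point per library (n = 5 per group). Levels run from about 11172 CPM per kb for *Col1a1* to 0.04 for *Col19a1*, and libraries at 0 are not drawn.

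All 38 members together took 16.6% to 18.4% of counts outside ribosomal RNA in control-labelled libraries (median 17.5%) and 14.2% to 19.1% in mutant-labelled libraries (median 18.7%). The lowest was again mutant-labelled replicate 2. That library was picked out by the low values of these same members, so leaving it out raises most of their mutant-labelled means. The counts without it therefore describe the members and do not test them. Without that library, 10 members (27.8%) had an unadjusted p under 0.05, against 6.79% of all genes tested in that setting, and 0 had an adjusted p under 0.05. The groups then did not overlap in 4 members (11.1%), *Col3a1*, *Col5a1*, *Col16a1* and *Col8a2*, against 2.46% of all genes. Relative to the mean of the other mutant-labelled libraries it stood below 100% in 29 of the 33 members with a mean of at least 1 CPM and above it in 4, with a median of 74.9% and a range from 29.7% for *Col6a6* to 112.7% for *Col10a1*.

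Of 41 genes for collagen modification, folding, processing and uptake, 39 were tested and 0 had an adjusted p under 0.05 by edgeR. At an unadjusted p under 0.05 there were 5 (12.8%, against 7.49% of all genes tested), 1 higher and 4 lower. Of the 39, 28 had negative fold changes, where 49.7% of all genes did, and the median was -0.07. *Pcolce2*, an enhancer of the cleavage of the carboxyl propeptide, held 9.06 to 10.6 CPM in control-labelled libraries and averaged 9.80 ± 0.554 against 6.58 ± 1.09 CPM (SD, n = 5 per group). Its fold change on the log2 scale was -0.57 (SE 0.111), with an unadjusted p of 2.5e-04 and an edgeR adjusted p of 0.184, and it was the 1 gene of this list called by DESeq2, which called 0.538% of all genes. *Itga2*, a subunit of a collagen-binding integrin, averaged 36.5 ± 3.48 and 30.7 ± 1.78 CPM (log2 fold change -0.25, edgeR adjusted p = 0.411).

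The lysyl hydroxylase gene *Plod2* averaged 67.0 ± 4.10 and 58.1 ± 5.63 CPM and the prolyl 3-hydroxylase gene *P3h2* 17.8 ± 2.46 and 14.7 ± 1.41 CPM (SD, n = 5 per group). Their log2 fold changes were -0.21 and -0.28 (edgeR adjusted p = 0.545 and 0.604). *P4ha3*, a prolyl 4-hydroxylase subunit, was the higher one, at 57.0 ± 4.29 and 69.3 ± 13.1 CPM with a log2 fold change of 0.28 (edgeR adjusted p = 0.634). *Serpinh1*, the collagen chaperone HSP47, averaged 1482 ± 85.4 and 1418 ± 180 CPM (SD, n = 5 per group), and the log2 fold change was -0.06 (edgeR adjusted p = 0.911). *Ddr2*, a collagen receptor kinase of mesenchyme, had a log2 fold change of 0.08 (edgeR adjusted p = 0.872).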

How the data were processed

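The authors deposited estimated counts per gene for 10 libraries, 5 per group, from stranded total RNA libraries. The submitters' notes name Partek and mm10. The aligner, the counting tool and its strand setting are not given in the sources used here. Of the values, 66.4% were whole numbers and the lowest gene sum was 10. Members and lists were chosen with earlier results of these data known. The estimated counts were rounded, although the design had assumed whole counts. Genes passing edgeR's expression filter (16267) were TMM-normalized and the groups compared without covariate by the quasi-likelihood test of edgeR, with Benjamini-Hochberg adjustment over all of them (threshold 0.05; R 4.3.3, edgeR 4.0.16). Alternatives used DESeq2 1.42.0, limma 3.58.1, other scaling, filters, covariates, a replicate block, and each library left out. SE is the fold change divided by the root of F. By rule every member may be named, values in detail go to the 3 members of each class with the highest mean and the 3 with the lowest p at a mean of at least 1 CPM, and modification genes are named at an unadjusted p under 0.05. *Col5a3* in detail, *Serpinh1*, *Ddr2*, *Ibsp*, *Sp7*, *Scx*, *Acan*, *Cnmd* and *Col2a1* were chosen after their values were seen. Values of *Col5a2*, *Col7a1*, *Col20a1*, *Col27a1* and *Col28a1* without a library are also given outside that rule. Sequences are RefSeq's, and positions equal GENCODE M21 for all 38 members. The tests were run on simulated counts first. Of the members, 12 share exon bases with another gene, so their counts are uncertain.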

Additional observations from a re-analysis of the deposited data

Results flagged for a closer look

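In 10 of 88 groups of 5 libraries, 1 library lay far from the other 4, with a gap to the nearest over the group's range above 0.71. Chance gives about 1 in 20 such groups. In mutant-labelled replicate 2, *Col5a1* was lowest at 1856 CPM (nearest 2620), *Col5a2* at 1667 CPM (nearest 2335), *Col6a1* at 898.4 CPM (nearest 1208), *Col6a2* at 840.5 CPM (nearest 1121) and *Col8a2* at 425 CPM (nearest 526.1). In mutant-labelled replicate 1, *Col5a3* was highest at 143.9 CPM (nearest 45.12) and *Col6a6* at 66.59 CPM (nearest 5.883). *Col7a1* was highest in control-labelled replicate 2 at 16.64 CPM (nearest 8.785). *Col26a1* was lowest in control-labelled replicate 3 at 48.73 CPM (nearest 67.03), and *Col10a1* was lowest in mutant-labelled replicate 5 at 3.93 CPM (nearest 6.64).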

How the results depend on the processing

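No member was called under any of the 22 alternatives, among them a threshold of 0.1 for the main edgeR fit. The other alternatives were held to 0.05, and *Col8a1* had an adjusted p of 0.0911 by DESeq2. All genes called numbered 3, with 1 by library size alone, with *Xist* as a covariate and with the replicate block, 95 by DESeq2, 0 with the osteoblast score and 1 to 6 with a library left out. Members at an unadjusted p under 0.05 numbered 5, then 0 with the osteoblast score, 6 by DESeq2 and 7 by voom. With a library left out they numbered 3 to 10, the 10 without mutant-labelled replicate 2. No other alternative gave more than 7. Members whose groups do not overlap numbered 0, then 1 by library size, 0 to 4 with a library left out and 2 without both muscle-rich libraries, an alternative chosen after seeing the data. DESeq2 called 1 gene of the synthesis and receptor list.

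Of 546 values over the 26 members picked by rule for values in detail, 520 kept their direction and 26, in 11 genes, reversed. The cause was not tested. Members outside the 26 are not in this tally, though some of them reversed too. *Col5a3* was -0.50 and *Col28a1* -0.60 without mutant-labelled replicate 1, and *Col27a1* was 0.055 without control-labelled replicate 2. By library size the log2 fold change was -0.0095 for *Col6a1* and -0.030 for *Col23a1*. By voom it was 0.013 for *Col1a2*, -0.36 for *Col6a6* and -0.018 for *Col23a1*. With the osteoblast score it was 0.28 for *Col1a1*, 0.31 for *Col1a2*, 0.10 for *Col24a1*, 0.18 for *Col22a1*, 0.15 for *Col6a3*, 0.00067 for *Col6a5*, -1.55 for *Col6a6*, 0.16 for *Col13a1*, -0.0125 for *Col23a1* and 0.078 for *Col25a1*. With the replicate block *Col6a6* was -0.28. Without both muscle-rich libraries *Col6a6* was -0.82 and the log2 ratio of *Col6a2* to *Col6a1* differed by -0.0037.

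With a library left out, *Col1a1* ran from -0.089 to 0.042, *Col1a2* from -0.057 to 0.073, *Col23a1* from -0.066 to 0.076 and *Col6a6* from -1.16 to 1.05. The log2 ratio of *Col6a2* to *Col6a1* differed by -0.010 to 0.021 and that of *Col4a2* to *Col4a1* by -0.00031 to 0.020. Correlations of same-numbered deviations were -0.211 to 0.139, and 0 libraries correlated best with their own number. The study describes littermate pairs, and the labels do not say whether equal replicate numbers mark them. Weak correlations over all genes cannot show that the libraries are unpaired. With the replicate block, the log2 fold changes were 0.47 for *Col8a1*, -0.21 for *Col13a1* and -0.29 for *Col22a1* (edgeR adjusted p = 0.536, 0.591 and 0.633). The median of all genes was 0.00073 by TMM and -0.038 by library size. Genes at a few CPM are limited by counting error.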
